A study of Homo sapiens with 4 samples.

Results

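The miR-548 family was followed in K562, an established cell line from a human chronic myeloid leukaemia that keeps erythroid features, after knockdown of ERH, a small conserved protein that associates with the nuclease complex that excises miRNA hairpins. Its members were chosen by name alone, as every row whose name starts with miR-548, which gave 48 of 2366 human miRNA rows. No measured value enters that rule. The family was nevertheless proposed with the knockdown results of these libraries in view, so its changes are given as a description and the calls support nothing by themselves.

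All cells carried an inducible dCas9-KRAB repressor (CRISPR interference, in which a catalytically dead Cas9 silences the targeted gene) and 1 of 2 guide RNAs against ERH, each in a polyclonal line of its own. The knockdown group received 0.05 µg/ml doxycycline, and the control group was the same 2 lines without doxycycline. Both groups were sampled on day 5. There were 2 libraries per group, 1 per guide RNA, so p-values measure only the spread between these libraries. Doxycycline and knockdown cannot be told apart in this design, because no line without an ERH guide RNA was analysed here, and ERH mRNA is not measured by small-RNA libraries. The libraries held 1430434 to 2476700 human miRNA reads. The erythroid miRNAs miR-451a, miR-144-3p and miR-486-5p each had at least 7956 reads in every library, whereas the 3 markers of other tissues that had a row reached at most 8 reads.

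miRNAs are short RNAs cut from a hairpin in a primary transcript, first in the nucleus by the Microprocessor (DROSHA with DGCR8) and then in the cytoplasm by Dicer, and they pair with target mRNAs mainly through their seed. The miR-548 hairpins descend from Made1, a short palindromic DNA transposon copied to many places in primate genomes, so that 1 strand of a copy folds back on itself. The result is a large, primate-specific family of scattered loci with similar but not equal mature sequences.

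The palindrome can be seen in the 3 hairpins of tested members that the RefSeq table (GRCh38.p14) holds. They are printed 5′ to 3′ with the counted mature miRNAs in capitals, the 5p arm first and the 3p arm last.
MIR548AR: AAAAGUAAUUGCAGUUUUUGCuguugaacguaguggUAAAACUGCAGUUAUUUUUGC
MIR548AS: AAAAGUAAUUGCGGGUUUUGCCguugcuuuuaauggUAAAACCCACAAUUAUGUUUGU
MIR548AT: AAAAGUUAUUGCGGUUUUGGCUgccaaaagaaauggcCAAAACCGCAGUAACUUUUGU
MIR548AR lies at chr13:114244505-114244561 on the plus strand in an intron of CDC16, a subunit of the anaphase-promoting complex. MIR548AS lies at chr13:92490163-92490220, plus strand, in an intron of GPC5, and MIR548AT at chr17:42494773-42494830, plus strand, in an intron of ATP6V0A1, a subunit of the vacuolar proton pump (GENCODE 29). RNAfold paired 87.7% of the bases of MIR548AR, 82.8% of MIR548AS and 75.9% of MIR548AT. Over 306 hairpins of other tested miRNAs the median was 73.5%, with 64.5% and 81.9% as the 10th and 90th percentiles. The printed hairpins, of 57 or 58 bases, begin and end at the mature arms, and length was not matched in this comparison.

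The mature members are shown next, chosen for their abundance, their change or their closeness to one another, with the seed (bases 2 to 8) in capitals. They come from RefSeq, which held 36 of the 48 names and 16 of the 22 tested ones.
miR-548b-3p: cAAGAACCucaguugcuuuugu
miR-548o-3p: cCAAAACUgcaguuacuuuugc
miR-548av-3p: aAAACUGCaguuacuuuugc
miR-548ar-3p: uAAAACUGcaguuauuuuugc
miR-548j-3p: cAAAAACUgcauuacuuuugc
miR-548l: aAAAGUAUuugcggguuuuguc
miR-548as-5p: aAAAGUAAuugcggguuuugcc
miR-548ar-5p: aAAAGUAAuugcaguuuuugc
miR-548aq-5p: gAAAGUAAuugcuguuuuugcc
miR-548ab: aAAAGUAAuuguggauuuugcu
miR-548n: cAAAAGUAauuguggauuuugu
The 16 tested members with a sequence used 14 seeds. Only AAAGUAA was shared among them, by miR-548ar-5p, miR-548ab and miR-548aq-5p, whose log2 fold changes ran from 0.42 to 1.18 with 2 of the 3 called up. A shifted start gives another seed to nearly the same RNA. miR-548n and miR-548ab share a run of 20 bases but start 1 base apart, and miR-548av-3p lies whole, 20 bases, within miR-548o-3p. Of 630 pairs of members with a sequence, 0 were identical, 16 were within 3 edits, and the nearest were 2 edits apart. The nearest pairs were miR-548l with miR-548as-5p, miR-548o-3p with miR-548j-3p and miR-548av-3p, miR-548ab with miR-548n, and miR-548ar-3p with miR-548av-3p. None of the 36 members with a sequence shared more than 14 first bases with another RefSeq miRNA. The other 12, among them the abundant miR-548d-3p and miR-548a-3p, could not be compared. RefSeq also holds 19 miR-548 names that were not analysed here, of which 16 share their first 18 bases with another miRNA. How reads matching several near-identical miRNAs were counted is not given in the sources used here, so members this close are uncertain as single measurements.

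The loci were scattered. By name, the 22 tested members come from 27 loci in GENCODE 29, of which 0 lie within 10 kb of another miRNA hairpin on the same strand. A gene on the same strand contains 18 of them, 3 lie only opposite a gene, and 6 lie in no annotated gene. Some names stand for several loci whose reads cannot be told apart. miR-548h-5p has 5 loci, miR-548a-3p and miR-548a-5p have 3, and miR-548d-3p and miR-548o-3p have 2 each. The 16 tested members with a sequence were rich in A and U. Their median was 63.6% of bases (range 54.5% to 72.7%) beside 50.0% over 397 other tested miRNAs. Across 413 tested miRNAs with a sequence, the correlation of the A and U share with the log2 fold change was 0.04 (Pearson, across miRNAs of the same 4 libraries). The 168 other tested miRNAs at least as rich in A and U as the lowest member had a median log2 fold change of 0.01.

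The family was a small part of the miRNA pool, and its share was larger after knockdown with both guide RNAs. Its 48 rows summed to 1219 and 1895 reads in the controls (guide RNA 1 and 2) and to 3570 and 3859 after knockdown. These were 0.0852% and 0.0765% of human miRNA reads in the controls and 0.160% and 0.161% after knockdown. Both knockdown libraries lay above both controls. In such bulk libraries, a change in all cells and a larger change in some cells of a polyclonal line cannot be told apart. Scaled with TMM (trimmed mean of M values, which sets the bulk of miRNAs equal between libraries) and given per scaled library total (CPM, counts per 1e+06 reads), the sum was 940.6 ± 37.1 CPM in controls and 1383 ± 37.2 CPM after knockdown (SD, n = 2). On that scale it was 1.40-fold higher with guide RNA 1 and 1.54-fold higher with guide RNA 2, and the log2 ratios were 0.49 (95% exact binomial interval 0.39 to 0.58) and 0.62 (0.54 to 0.70). The intervals cover counting error only. No p is given for the sum, since the members were proposed with results known, and an exact two-sided permutation test of 2 against 2 cannot go below 0.333.

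The size of this difference depended on how libraries were set equal, and its direction did not under the 4 scalings tried. The mean log2 ratio over the guide RNAs was 0.56 with TMM, 0.51 with RLE size factors, 0.99 with library size alone and 1.25 with the added spike-in RNAs. The median of all tested miRNAs moved in step, from 0.06 with TMM to 0.50 with library size and 0.75 with spike-ins, while the median of the tested members went from 0.69 to 1.14 and 1.37. Below, "rose" therefore means relative to the bulk of tested miRNAs.

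**Figure D1:**
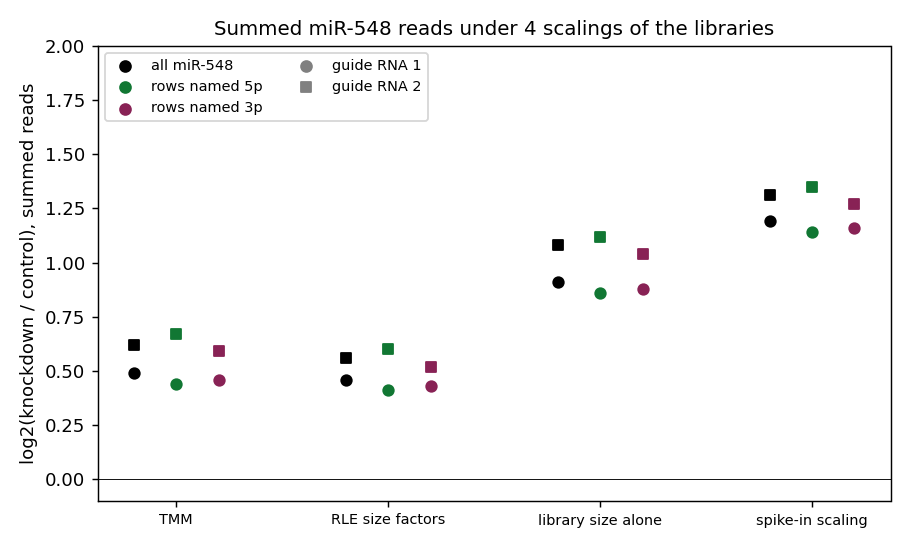
Log2 ratio of knockdown to control for summed miR-548 reads (vertical axis) under 4 scalings of the libraries (horizontal axis), with circles for guide RNA 1 and squares for guide RNA 2. Every point is above 0, the whole family running from 0.46 (RLE, guide RNA 1) to 1.31 (spike-ins, guide RNA 2).

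The reads were concentrated in few members. The 3 most abundant, miR-548b-3p, miR-548d-3p and miR-548a-3p, took 62.8% and 63.2% of the family's reads in controls and 59.7% and 58.1% after knockdown. Levels of different miRNAs are compared here as reads per miRNA, with no correction for how well each is captured. Of the 48 rows, 15 had 0 reads in all 4 libraries. There, 0 reads would still allow 3, which is 1.21 to 2.10 per 1e+06 human miRNA reads before TMM scaling, depending on the library. Another 5 rows had 1 to 9 reads in all, and 6 more had too few to be tested. The filter (filterByExpr of edgeR, minimum count 10) kept 22 members. At its edge, miR-548t-5p was kept with 36 reads in all and miR-548au-3p was left out with 25.

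Among the 22 tested members, 12 rose and 0 fell in edgeR's quasi-likelihood test, with p-values adjusted by Benjamini and Hochberg's method over all 464 tested miRNAs and a threshold of 0.05. Over all tested miRNAs 50.9% were called, 25.6% up and 25.2% down. The tested members had a median log2 fold change of 0.69, with 20 above 0 and 2 below. Over all 464 tested miRNAs the median was 0.06, with 248 above 0 and 216 not. Both knockdown libraries exceeded both controls for 16 of the 22 members and for 41.4% of all tested miRNAs. The log2 fold change and the log abundance of the 22 members had a correlation of -0.27 (Pearson, across members of the same libraries). Among 305 other tested miRNAs within the members' range of abundance, 81 were called up and 54 down, with a median of 0.15. The filter's level was 4.33 per 1e+06 human miRNA reads, before TMM scaling. In the family, 5 members (miR-548aq-5p, miR-548at-5p, miR-548ay-3p, miR-548t-5p and miR-548u) were under it in at least 1 control and so needed a knockdown library to pass. Such a filter favours members that are higher after knockdown, although miR-548u passed with overlapping groups. Of the other 17, 8 rose, with a median of 0.54.

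**Figure D2:**
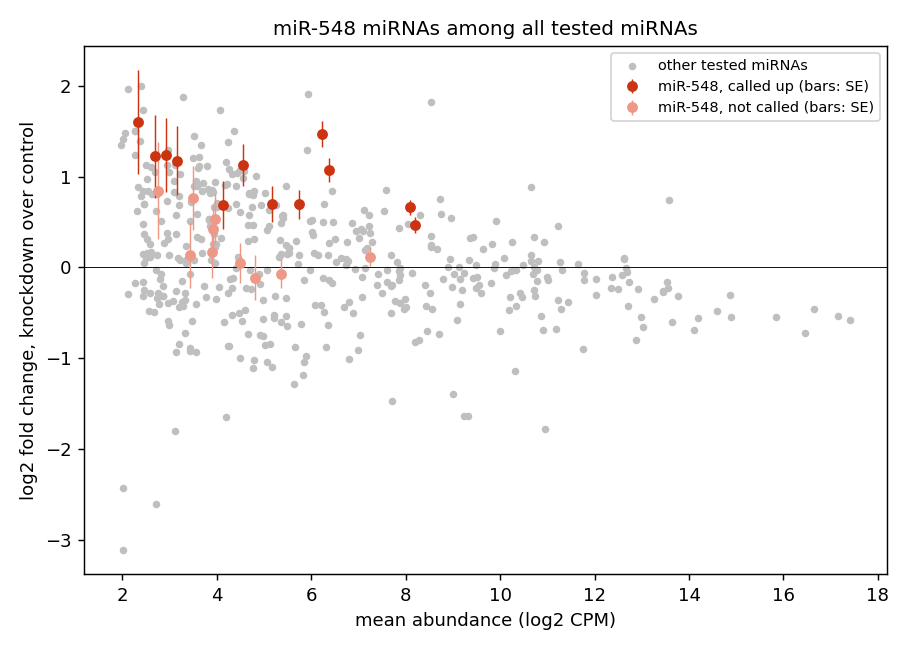
Log2 fold change of knockdown over control (vertical axis) against mean abundance in log2 CPM (horizontal axis) for the tested miRNAs with a read in every library, with SE bars for the miR-548 members. The members called up are spread over the whole range of the family's abundance, from miR-548t-5p at the left to miR-548b-3p at the right.

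The call count depended on the tool and on single libraries. It was 6 with DESeq2, where 4 members got no adjusted p and 10.3% of all tested miRNAs were called up. It was also lower with any 1 library left out, where fewer of all tested miRNAs were called up as well. With a library left out, the median log2 fold change of the tested members was 0.57 to 0.71. No member was called down in these fits. The calls of miR-548b-3p, miR-548d-3p, miR-548o-3p, miR-548l and miR-548ar-5p held under all 11 alternatives.

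**Figure D3:**
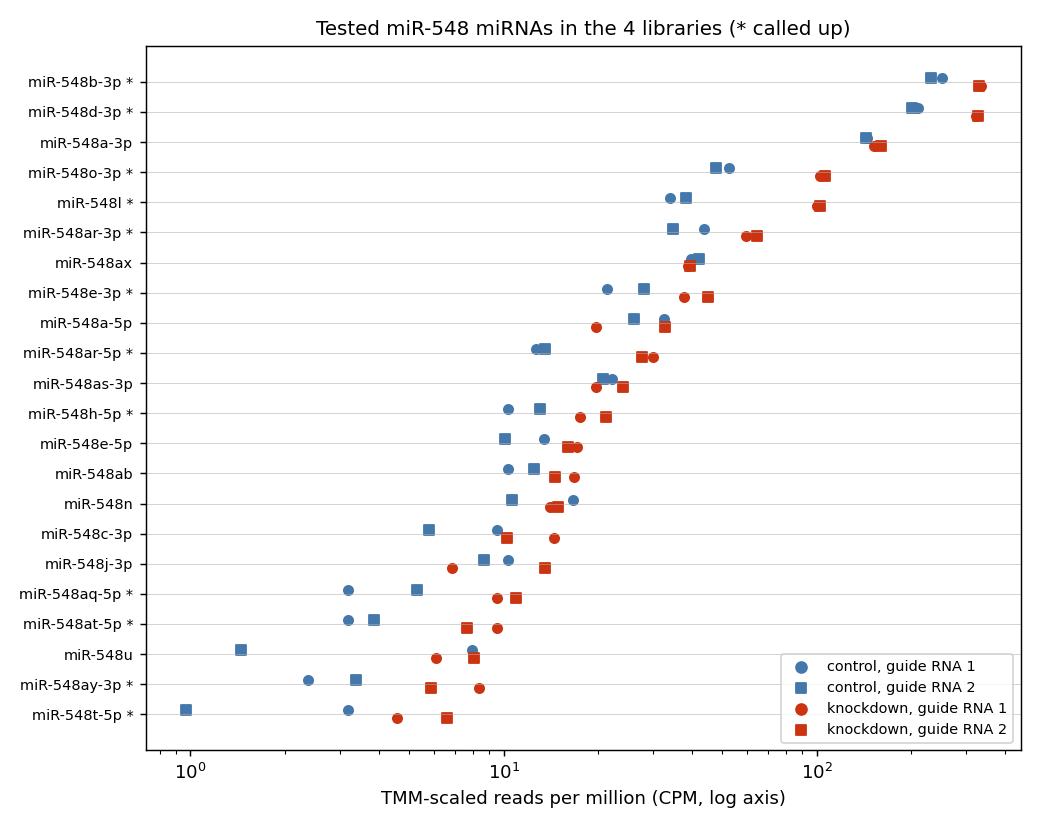
TMM-scaled CPM (horizontal log axis) of the 22 tested members (vertical axis, ordered by reads in all libraries) in each library, with blue for control, red for knockdown, circles for guide RNA 1 and squares for guide RNA 2. The red points lie to the right of both blue points for 16 members, and members called up carry a star.

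The most abundant member, miR-548b-3p, had 317 and 480 reads in controls and 879 and 906 after knockdown, or 251 and 232 CPM against 334 and 331 CPM. Both knockdown libraries were higher, and its log2 fold change was 0.47 ± 0.09 (SE; 2 against 2 libraries; edgeR adjusted p = 0.00038). Its single locus MIR548B is at chr6:119069047-119069143 on the minus strand, in an intron of FAM184A. miR-548d-3p had 265 and 419 reads in controls and 851 and 897 after knockdown (210.2 and 202 against 323 and 327 CPM), and rose by 0.66 ± 0.09 (edgeR adjusted p = 1.2e-05). The groups did not overlap for it either. miR-548a-3p, the third in abundance, had 183 and 298 reads in controls and 402 and 440 after knockdown, or 145 and 144 against 153 and 161 CPM. Its knockdown libraries were the higher ones by a small margin, and its log2 fold change of 0.12 ± 0.10 was not called (edgeR adjusted p = 0.35), though with library size alone it was 0.56 and called.

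The largest well-counted change was that of miR-548l. It had 43 and 79 reads in controls and 264 and 280 after knockdown, or 34.1 and 38.1 CPM against 100.3 and 102 CPM. The knockdown libraries lay close together and stood far above both controls, and it rose by 1.47 ± 0.14 (2.77-fold; edgeR adjusted p = 5.4e-07). The locus, MIR548L at chr11:94466495-94466580 on the minus strand, is in an intron of MRE11, which encodes a nuclease of DNA break repair. miR-548o-3p had 66 and 99 reads in controls and 269 and 291 after knockdown, or 52.4 and 47.8 CPM against 102 and 106 CPM, again without overlap. It rose by 1.07 ± 0.13 (2.10-fold; edgeR adjusted p = 7.5e-06). One of its loci, MIR548O2 at chr20:38516563-38516632 on the plus strand, is in an intron of RALGAPB, and the other, MIR548O at chr7:102405742-102405855 on the minus strand, lies opposite an intron of PRKRIP1.

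Members thus parted from one another, and ratios of reads within a library show this without any scaling. Per read of miR-548b-3p there were 0.150 ± 0.020 reads of miR-548l in controls and 0.305 ± 0.0062 after knockdown (SD, n = 2), a ratio 2.03 times as high. For miR-548o-3p the values were 0.207 ± 0.0014 and 0.314 ± 0.011, or 1.51 times as high. For miR-548a-3p they were 0.599 ± 0.031 and 0.471 ± 0.020, and for miR-548ax 0.169 ± 0.017 and 0.118 ± 0.0022, so these 2 lost ground to miR-548b-3p in both knockdown libraries. Neither of them was called in either direction. miR-548ax, from an intron of ARHGAP6 on the X chromosome (MIR548AX, chrX:11318614-11318686, minus strand), had 39.7 and 42.0 CPM in controls and 38.8 and 39.4 CPM after knockdown. Both knockdown libraries were lower by a small margin, with a log2 fold change of -0.07 ± 0.16 that turns to 0.37 with library size and 0.61 with spike-ins, neither called.

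Both arms of a hairpin were tested for 3 names. From MIR548AR, the 3p arm had 55 and 72 reads in controls and 157 and 176 after knockdown, and the 5p arm had 16 and 28 reads in controls and 79 and 76 after knockdown. Both arms were higher in both knockdown libraries, miR-548ar-3p by 0.69 ± 0.16 (edgeR adjusted p = 0.0024; 0.52, not called, without the control library of guide RNA 2) and miR-548ar-5p by 1.13 ± 0.23 (edgeR adjusted p = 0.00087). The 5p arm made up 25.3% ± 3.86 of this hairpin's reads in controls and 31.8% ± 2.34 after knockdown (SD, n = 2), a difference of 6.55 points between groups that did not overlap. In MIR548AS, whose 5p arm had too few reads to be tested, the groups did not overlap either, in the other direction. Its 5p share was 15.7% ± 8.58 in controls and 7.24% ± 2.16 after knockdown. From MIR548E, at chr10:110988926-110989013 (plus strand) in an intron of SHOC2, a scaffold of Ras signalling, miR-548e-3p had 27 and 58 reads in controls and 99 and 123 after knockdown and rose by 0.70 ± 0.20 (edgeR adjusted p = 0.0082). That call was lost without the knockdown library of guide RNA 2 and without the control library of guide RNA 1, with 0.57 in both cases, and with DESeq2 (0.67). Its partner miR-548e-5p had 17 and 21 reads in controls and 45 and 44 after knockdown, with a log2 fold change of 0.54 ± 0.27 that was not called (edgeR adjusted p = 0.11). The 5p share of this pair was 32.6% ± 8.52 in controls and 28.8% ± 3.47 after knockdown, a difference within the spread of the libraries.

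The miR-548a arms, whose 3 loci include MIR548A1 in an intron of MIR548A1HG (chr6:18571784-18571880, plus strand) and MIR548A2 outside annotated genes (chr6:135239160-135239256, plus strand), were not called, like miR-548ax. miR-548a-5p had 41 and 54 reads in controls and 52 and 90 after knockdown, or 32.5 and 26.1 CPM against 19.8 and 32.9 CPM. The groups overlapped, with the lowest and the highest value both after knockdown, and the log2 fold change was -0.11 ± 0.24. Its 5p share was 16.8% ± 2.09 in controls and 14.2% ± 3.91 after knockdown, also within the spread.

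Summed over rows with an arm in the name, the arms moved alike. The 13 rows named 5p held 80.9 and 78.7 CPM in controls and 109.8 and 125 CPM after knockdown, and the 19 rows named 3p held 773 and 729 CPM and then 1065 and 1098 CPM. The mean log2 ratios were 0.55 for 5p and 0.53 for 3p, and the rows named 5p made up 8.48% ± 0.166 of the family's reads in controls and 8.48% ± 0.542 after knockdown (SD, n = 2). The 16 rows with no arm in the name, miR-548l among them, had a mean log2 ratio of 0.74. When such rows were given an arm by their position in the hairpin, a step added after the data were seen, the mean log2 ratio was 0.82 for 5p and 0.53 for 3p. The 5p share of reads with an arm was then 15.9% ± 0.411 in controls and 18.7% ± 0.277 after knockdown. With arms by name, leaving out the most read row of each arm gave 0.85 for 5p, whose most read row is miR-548a-5p, and 0.56 for 3p. Whether the 5p rows changed more thus depends on miR-548a-5p and on whether miR-548l and the other rows with no arm in the name are counted as 5p. Among tested members named 5p, 5 of 7 rose, and among those named 3p, 6 of 10, beside 25.6% of all tested miRNAs. With arms by name or position, these counts were 6 of 10 and 6 of 11. Of the called members, miR-548aq-5p, miR-548at-5p, miR-548t-5p and miR-548ay-3p needed a knockdown library to pass the filter. That raises the counts, mostly on the 5p side, so the arms cannot be ranked by them.

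The remaining calls were in members with few reads. miR-548h-5p had 13 and 27 reads in controls and 46 and 58 after knockdown and was called at 0.69 ± 0.27 (edgeR adjusted p = 0.040). It was not called without any 1 library (0.54 to 0.92), with RLE size factors (0.64) or with DESeq2 (0.66). From an intron of IGF2BP2, an RNA-binding protein gene, miR-548aq-5p (MIR548AQ, chr3:185767847-185767904, minus strand) had 4 and 11 reads in controls and 25 and 30 after knockdown (1.18 ± 0.38, edgeR adjusted p = 0.018). Its call was lost without any 1 library, with values from 0.96 to 1.69, and with DESeq2 (1.17). miR-548at-5p, from the hairpin shown above, had 4 and 8 reads in controls and 25 and 21 after knockdown (1.24 ± 0.41, edgeR adjusted p = 0.019). It lost its call without the knockdown library of guide RNA 1 (1.08) and without either control (1.15 and 1.43). In all 3 of these members both knockdown libraries were above both controls.

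At the lowest counts, miR-548ay-3p (MIR548AY, chr3:32506283-32506389, minus strand, in no annotated gene) had 3 and 7 reads in controls and 22 and 16 after knockdown (1.22 ± 0.46, edgeR adjusted p = 0.033). Its call was lost without any 1 library (0.95 to 1.56). miR-548t-5p (MIR548T, chr4:173268160-173268233, plus strand, in an intron of the glycosyltransferase gene GALNT7) had 4 and 2 reads in controls and 12 and 18 after knockdown (1.60 ± 0.57, edgeR adjusted p = 0.027). It lost its call without either knockdown library (1.83 and 1.31) and without the control library of guide RNA 2 (0.82). The controls of these 2 members rest on 2 to 7 reads a library, and their SE are the largest of the called members. DESeq2 gave no adjusted p for them or for miR-548at-5p, so these 3 calls were not tried there. A stricter filter, a mean of at least 10 CPM, left out these 3 and miR-548aq-5p before testing.

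The other 10 tested members were not called, of which miR-548a-3p, miR-548a-5p, miR-548ax and miR-548e-5p are described above. miR-548c-3p, in an intron of RASSF3, had 12 reads in each control and 38 and 28 after knockdown (0.76 ± 0.35, edgeR adjusted p = 0.079). miR-548ab had 13 and 26 reads in controls and 44 and 40 after knockdown (0.42 ± 0.27). The knockdown libraries of both were above the controls after scaling. With library size alone miR-548c-3p stood at 1.21, miR-548ab at 0.86 and miR-548e-5p at 0.98, and with spike-ins at 1.40, 1.08 and 1.19, each of them called. miR-548as-3p, with 28 and 43 reads and then 52 and 66, stood at 0.04 ± 0.22, and its groups overlapped. miR-548n had 21 and 22 reads in controls and 37 and 41 after knockdown (0.17 ± 0.28). miR-548j-3p, from an intron of TPST2, had 13 and 18 and then 18 and 37 reads (0.14 ± 0.37). miR-548u, from an intron of the primase gene PRIM2, had 10 and 3 reads in controls and 16 and 22 after knockdown (0.85 ± 0.53), and it was called only without the control library of guide RNA 1 (2.26), with library size (1.28) or with spike-ins (1.49) and stood at -0.15 without the control library of guide RNA 2. In miR-548n, miR-548j-3p and miR-548u the groups overlapped as well.

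Within single guide RNAs, 16 of the 22 tested members were higher after knockdown with both guide RNAs, 1 (miR-548ax) was lower with both, and 5 went opposite ways. Over all tested miRNAs, the share higher with both was at least 41.4%, the share with both knockdown libraries above both controls. This lower bound does not give the size of any difference from the family. The share of all tested miRNAs that went opposite ways is not given here. The median log2 ratio of the tested members was 0.56 with guide RNA 1 and 0.70 with guide RNA 2. miR-548l stood at 1.56 and 1.42 and miR-548o-3p at 0.97 and 1.15. miR-548d-3p stood at 0.62 and 0.70, and miR-548b-3p at 0.41 and 0.51. For the rarest members the guide RNAs differed widely, as in miR-548t-5p with 0.52 and 2.77. The correlation of the 2 ratios over the 22 members was 0.19 (Pearson, members of the same 4 libraries).

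**Figure D4:**
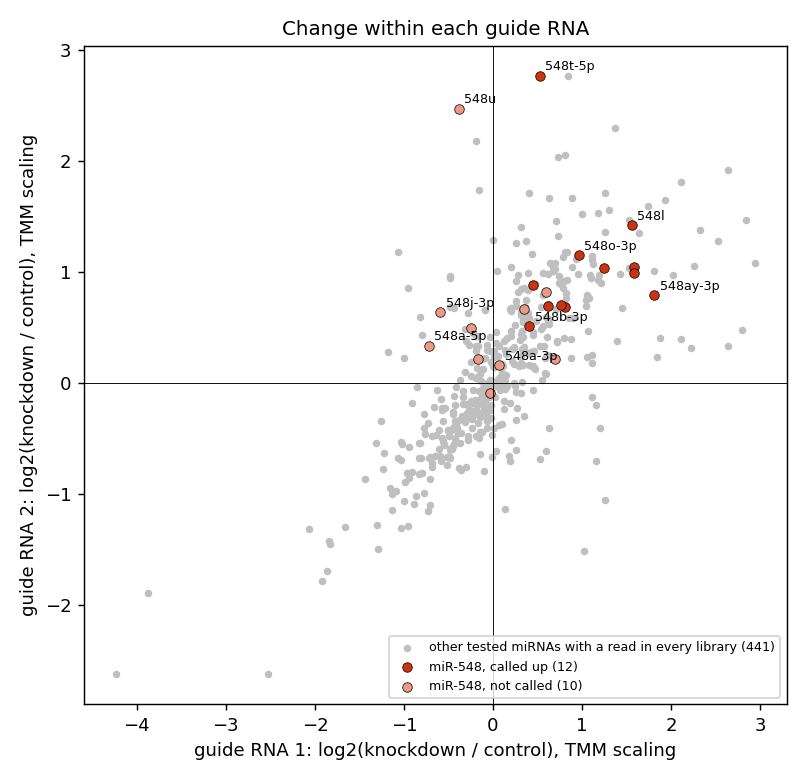
Log2 ratio of knockdown to control within guide RNA 1 (horizontal axis) and guide RNA 2 (vertical axis), TMM scaling, for the 22 tested miR-548 members in red (dark, called up; light, not called) and 441 other tested miRNAs in grey. All 12 called members are above 0 on both axes, and 5 light points lie left of 0 and above 0.

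Among untested members with reads, the 5 most read are named. miR-548au-3p had 4 and 1 reads in controls and 8 and 12 after knockdown, and miR-548as-5p had 3 and 12 and then 5 and 4. miR-548at-3p had 1 and 0 reads and then 5 and 12, miR-548q 3 and 2 and then 7 and 5, and miR-548p 2 and 1 and then 5 and 6. After scaling, miR-548as-5p was lower in both knockdown libraries than in both controls, while for miR-548au-3p the groups overlapped. All 26 untested rows together held 14 and 21 reads in controls and 36 and 51 after knockdown.

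Other miRNAs thought to come from Made1 carry other numbers, namely miR-570, miR-579 and miR-603. Of the 3 tested ones, 1 rose and 0 fell, with a median of 0.28. miR-570-3p (MIR570, chr3:195699401-195699497, plus strand, in an intron of MUC20-OT1) had 278 and 353 reads in controls and 669 and 733 after knockdown, or 220.5 and 170.3 CPM against 254 and 268 CPM. Both knockdown libraries were higher, and it rose by 0.44 ± 0.11 (edgeR adjusted p = 0.0043). That call was lost without either knockdown library and without the control library of guide RNA 2. miR-579-3p, in an intron of the RNA-binding protein gene ZFR, stood at 0.28 ± 0.12 (edgeR adjusted p = 0.063) and its other arm miR-579-5p at 0.08 ± 0.32, while miR-603 had 0 reads in every library. miRNAs derived from another transposon, the LINE element L2, gave a list of 16 names with 6 tested members, of which 0 rose and 5 fell, beside 25.6% called up and 25.2% called down over all tested miRNAs, with a median of -0.43 (miR-151a-3p, miR-421, miR-374a-3p, miR-374b-5p and miR-374b-3p). Of those that fell, miR-374b-5p and miR-374b-3p are arms of the same hairpin, so these calls do not all stand for separate loci. With library size 2 of that list were called up and 2 down, and with spike-ins 1 was called up and 0 down. The difference between these lists and the miR-548 members was not tested.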

How the data were processed

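Small RNA, purified on a gel after TRIzol extraction per the labels, was sequenced in 4 libraries. The deposited values are raw read counts per mature miRNA name. Not given in the sources used here were trimming, aligner, genome build, annotation release and the handling of reads that match several miRNAs. After setting aside 2 spike-in rows, 464 of 2366 miRNAs passed filterByExpr (minimum count 10, minimum total 15) of edgeR 4.0.16 in R 4.3.3. TMM factors scaled the libraries, and edgeR's quasi-likelihood F-test compared knockdown with control and no block. The SE is the coefficient divided by the square root of its F. Calls were at a Benjamini-Hochberg adjusted p under 0.05. The test was checked on simulated data. Each replicate number stands for 1 guide RNA and its line, so the design pairs the libraries, although the deviations of paired libraries had a correlation of -0.11 over 464 miRNAs. Sums used counts divided by the scaled library size. Sequences came from RefSeq (GRCh38.p14), loci from GENCODE 29 by symbol, folds from RNAfold 2.7.2 and plots from matplotlib 3.10.9. Every tested member is named, with the 5 most read of the others. The members and lists were chosen with earlier results of these data known. Alternatives were RLE, library size, spike-ins, DESeq2 1.42.0, a replicate block, 2 filters, each library left out, and other sums.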

Additional observations from a re-analysis of the deposited data

Results flagged for a closer look

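Of the tested members, 5 had log2 ratios of opposite sign in the 2 guide RNA lines, a difference that was not tested because each line has 1 library per condition. miR-548u stood at -0.38 with guide RNA 1 and 2.47 with guide RNA 2, on 3 to 22 reads a library. miR-548j-3p stood at -0.59 and 0.64, and miR-548a-5p at -0.72 and 0.33. miR-548n stood at -0.24 and 0.50, and miR-548as-3p at -0.17 and 0.22. None of the 5 was called in the fit over all 4 libraries. The share of all tested miRNAs with opposite signs is not given here, so the count of 5 is a description only.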

How the results depend on the processing

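The family's sum was above 0 under every alternative run. Its mean log2 ratio of 0.56 moved to 0.99 on library size, to 1.25 on spike-ins, and ran from 0.52 to 0.60 with a library left out. The 5p sum moved to 0.99 and 1.25, to 0.85 without its most read row and to 0.82 with arms by position, and the 3p sum to 0.96 and 1.22. The 5p share of the family's reads changed by -0.00573 points, and by 2.82 with arms by position. Leaving out a library gave 0.46 to 0.65 for 5p and 0.48 to 0.57 for 3p. Counting identical sequences once could change nothing, since no 2 members with a sequence were identical and the 12 without one could not be compared. Members called up numbered 12 of 22, with 17 on library size, 16 on spike-ins, 11 with RLE, 6 under DESeq2 and fewer than 12 with any 1 library left out. With the filter of 10 CPM they numbered 8 of the 16 members that this filter kept. Without a filter 13 were called, the added one being miR-548at-3p (3.18, edgeR adjusted p = 0.012), on 1 and 0 reads in controls and 5 and 12 after knockdown. Under each of these, 0 members were called down. The share of all tested miRNAs called up was 25.6% in the main fit, 23.3% with RLE and 10.3% under DESeq2. It was 58.8% on library size, 40.1% on spike-ins, 30.6% with the filter of 10 CPM and 10.1% without a filter. All called miRNAs numbered 236, with 150 under DESeq2 (48 up, 102 down) and 132 to 189 with a library left out. Calls split into 273 up and 41 down on library size, and 186 up and 8 down on spike-ins, against 119 and 117. With the replicate block, 230 were called, 12 members among them, and it changed no member's call. The Made1 relatives gave 1 call, 2 with library size, with the filter of 10 CPM and with spike-ins, and 0 to 1 with a library left out. The L2 list gave 5 calls, 1 with spike-ins and 3 to 4 with a library left out.

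The changes of sign below were all in members not called before or after. miR-548ax went to 0.37 with library size and 0.61 with spike-ins. miR-548a-5p went to 0.33 and 0.58 with these, to 0.20 without knockdown replicate 1 and to 0.03 without control replicate 1 (range with a library left out -0.53 to 0.20). miR-548as-3p went to -0.02 with DESeq2, -0.01 with RLE, -0.11 without knockdown replicate 2 and -0.00 without control replicate 2 (-0.11 to 0.18 with a library left out). Without control replicate 2, miR-548n was at -0.18 and miR-548u at -0.15 (up to 2.26 with another library left out), and without knockdown replicate 2 miR-548j-3p was at -0.44 (up to 0.54). The cause was not tested. With a library left out, a group of 1 is assumed to vary like the other. Depth limits the members under 100 reads in all, whose SE had a median of 0.41 on the log2 scale, against 0.20 for the others.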
